A study of Homo sapiens with 6 samples.

Results

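The ZNF genes of chromosome 19 are the largest block of zinc finger genes in the human genome, and 243 of them were followed here among 39168 gene identifiers. A member was every protein-coding gene on chromosome 19 whose symbol is ZNF followed by a number and at most 1 letter, so neighbours named ZFP, ZIM or ZSCAN were not included. The libraries were bulk RNA-seq of total RNA from CAL62, an established human anaplastic thyroid carcinoma cell line labelled as WT. The erianin group (n = 3) received 50 nM erianin, a natural compound from Dendrobium, for 48 h, and the control group (n = 3) received its solvent DMSO for the same 48 h. The submitters describe replicate experiments of 1 cell line, and nothing read here says whether the cultures were started separately, so the p-values measure the spread between these libraries. Reads on named genes ranged from 25776301 to 34107727 per library. PAX8, a thyroid lineage factor, was at 105 to 150 TPM (a transcript abundance per gene length and library size), whereas the thyroid genes TSHR and NKX2-1 were at 0 in all 6 libraries, and the leukocyte genes PTPRC and CD3E were at 0.0459 TPM or less.

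Most of these genes encode proteins in which an array of C2H2 zinc fingers, each folding around a zinc ion, reads DNA, and in which an N-terminal KRAB box binds the corepressor TRIM28. TRIM28 brings the histone methyltransferase SETDB1 and the heterochromatin proteins of the CBX family, so that KRAB zinc finger proteins mostly repress, and many of them bind transposable elements. The genes arose by repeated tandem duplication and lie in clusters along the chromosome. In the translated coding sequences of GENCODE release 29, 205 of the 243 members held a KRAB-like sequence pattern and 38 did not, and the number of C2H2 patterns ranged from 0 to 39 with a median of 13. These are matches of a sequence pattern and not domain calls.

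A feature that the choice of members did not use lay in their promoters. RefSeq promoters on GRCh38.p14, which run from 250 bases before to 50 bases after the gene start, matched 214 of the 243 members. The letters CCGGAAG, the core of ETS-type sites, stood on either strand in 98 of the 214 (45.8%), against 10.3% of all 35116 promoters of the same length. The other letters searched on both strands were rarer. ACTACAA was in 4.67% of member promoters and 2.77% of all, GCATGCGC in 4.21% and 3.05%, the CRE-type TGACGTCA in 3.27% and 1.85%, the AP-1-type TGACTCA in 2.34% and 4.95%, and the E-box CACGTG in 4.21% and 7.26%. Median promoter GC content was 59.8% for members and 58.7% for all promoters, and the ratio of observed to expected CpG was 0.763 and 0.579. None of these strings of letters contains another, and a match is a description of the sequence only. The promoters of the members with the largest increase (ZNF296) and the largest decrease (ZNF446) among the genes called below and of ZNF274, which binds the ZNF clusters themselves, are shown 5′ to 3′ with matches in capitals; they lie at chr19:45076429-45076728 on the minus strand, chr19:58476102-58476401 on the plus strand and chr19:58182811-58183110 on the plus strand.
ZNF296: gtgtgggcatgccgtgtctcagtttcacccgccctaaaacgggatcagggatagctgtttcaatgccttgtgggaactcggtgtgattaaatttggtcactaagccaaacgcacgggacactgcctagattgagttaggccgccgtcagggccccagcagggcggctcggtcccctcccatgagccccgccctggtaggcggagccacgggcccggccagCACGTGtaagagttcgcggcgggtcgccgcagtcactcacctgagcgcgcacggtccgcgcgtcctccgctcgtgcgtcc
ZNF446: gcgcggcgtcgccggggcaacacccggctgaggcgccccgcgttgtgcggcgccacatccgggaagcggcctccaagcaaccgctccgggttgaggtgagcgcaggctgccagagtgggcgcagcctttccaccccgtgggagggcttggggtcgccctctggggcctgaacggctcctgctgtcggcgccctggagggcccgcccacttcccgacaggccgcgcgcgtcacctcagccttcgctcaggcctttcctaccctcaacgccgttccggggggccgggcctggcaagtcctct
ZNF274: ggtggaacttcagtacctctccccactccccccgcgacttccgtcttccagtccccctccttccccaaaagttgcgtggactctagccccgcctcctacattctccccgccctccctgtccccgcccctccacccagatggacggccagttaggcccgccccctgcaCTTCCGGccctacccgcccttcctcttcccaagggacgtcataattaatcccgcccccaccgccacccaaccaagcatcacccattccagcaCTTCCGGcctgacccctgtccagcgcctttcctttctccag
The capitals mark CACGTG in ZNF296 and 2 copies of CCGGAAG, read on the reverse strand, in ZNF274, while the ZNF446 promoter held none of the letters searched.

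The members had low read counts. Of the 243, 14 had no read in any library, 28 had reads but too few for the test (at most 61 in all 6 libraries together), and 201 passed the filter on low counts. Exons of 133 members overlapped another gene on either strand. Of the tested members, 37 shared over 10% of the 50-base words of their longest transcript with other genes. ZNF177, with no read, shared 97.8% with the gene ZNF559-ZNF177. A low or zero count is therefore not by itself evidence of low expression. The 201 had a median level of 1.92 TPM (range 0.129 to 158), against 12 TPM over all 12821 tested genes, and a median of 116 reads per library against 757. Only 23 of them exceeded 10 TPM, while 153 reached 1 TPM. In each library the members together took 0.146%, 0.151% and 0.165% of the reads in DMSO replicates 1 to 3 and 0.163%, 0.163% and 0.165% in erianin replicates 1 to 3, so DMSO replicate 3 equalled the highest erianin library. In bulk RNA, a change in the number of cells that express a gene cannot be told apart from a change in RNA per cell.

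One control library stood apart. Euclidean distances between libraries, computed on log2(CPM + 0.5) over all tested genes (CPM, read counts normalized to library size), were 23.2 between DMSO replicates 1 and 2 and 20.02 to 20.59 among the erianin libraries, but 52.53 to 54.87 between DMSO replicate 3 and every other library. With DMSO replicate 3 the biological coefficient of variation was 0.139, and without it 0.0421. The members' levels moved with this library. Relative to the mean of DMSO replicates 1 and 2, the median member was 0.27 higher on the log2 scale in DMSO replicate 3, and 0.22, 0.20 and 0.19 higher in erianin replicates 1 to 3, while the median of all tested genes stayed at 0.01 to 0.02. DMSO replicate 3 lay above both other DMSO libraries in 128 of the 201 members (63.7%; 44.7% of all tested genes) and below both in 44 (21.9%; 43%). It lay above all 3 erianin libraries in 86 members (42.8%; 41.6% of all tested genes).

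**Figure D1:**
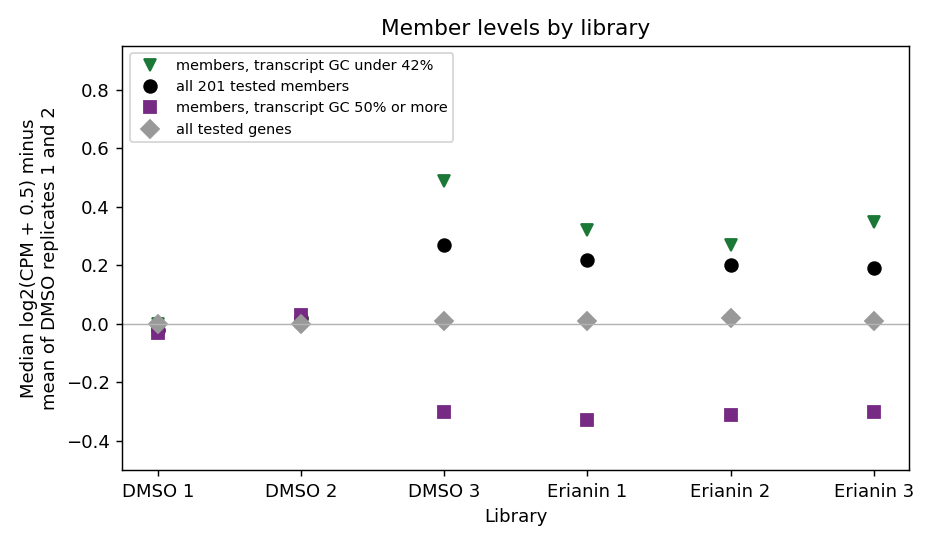
Median log2(CPM + 0.5) per library, relative to the mean of DMSO replicates 1 and 2 (y axis), for all tested members, for members with transcript GC under 42% or of 50% and more, and for all tested genes. The members with transcript GC under 42% sit at 0.49 in DMSO replicate 3 and at 0.27 to 0.35 in the erianin libraries, and those of 50% and more at -0.30 to -0.33 in all 4.

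With all 6 libraries, few members differed between erianin and DMSO. A gene was called when edgeR's quasi-likelihood test gave a Benjamini-Hochberg adjusted p under 0.05 over all tested genes and the log2 fold change exceeded 0.5 in size. By this rule 6 of 201 members were higher with erianin (2.99%; 5.37% of all tested genes) and 5 were lower (2.49%; 3.36% of all tested genes), so both shares were below those of all genes. The median log2 fold change was 0.09 for the members and 0.00 for all tested genes, with 117 members above 0 and 84 below. The groups did not overlap, with every erianin library higher, in 40 members (19.9%; 19.5% of all tested genes), and with every erianin library lower in 21 (10.4%; 19.3% of all tested genes). The median standard error of a member's log2 fold change was 0.21. On log2(TPM + 1), where the median log2 fold change of all genes was 0.18, limma called 16 of 153 members higher (10.5%; 9.41% of all tested genes) and 1 lower (0.654%; 0.805% of all tested genes). This fit differs from the edgeR fit in test, filter and scale together, and upper-quartile factors alone gave 9 and 5.

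Of the members that rose, ZNF296 and ZNF850 changed most. ZNF296 lies at chr19:45071500-45076588, with no other member starting within 500 kb, and encodes a zinc finger protein whose mouse counterpart takes part in pluripotency. Its levels were 4.15, 4.96 and 5.75 CPM in DMSO replicates 1 to 3 and 10.1, 10.2 and 9.85 CPM in erianin replicates 1 to 3. All erianin libraries exceeded all DMSO libraries, and the log2 fold change was 1.01 (SE 0.14, edgeR adjusted p = 0.00632). ZNF850, a KRAB zinc finger gene with 30 finger patterns, stood at 1.40, 1.76 and 1.93 CPM with DMSO and at 3.45, 3.78 and 3.05 CPM with erianin. It rose by 1.01 (SE 0.19, edgeR adjusted p = 0.0144), again without overlap of the groups. ZNF57, another KRAB zinc finger gene, stood at 3.45, 2.80 and 3.08 CPM with DMSO and at 6.15, 4.69 and 5.22 CPM with erianin (log2 fold change 0.79, SE 0.16, edgeR adjusted p = 0.0203). The remaining 3 lie in the cluster nearest the end of the long arm. ZNF587B stood at 6.40, 7.03 and 6.23 CPM with DMSO and at 9.63, 10.5 and 9.36 CPM with erianin, a log2 fold change of 0.58 (SE 0.12, edgeR adjusted p = 0.0177). ZNF551 stood at 3.78, 3.61 and 4.21 CPM with DMSO and at 5.45, 5.90 and 5.85 CPM with erianin, a log2 fold change of 0.57 (SE 0.13, edgeR adjusted p = 0.0288). ZNF550 stood at 7.23, 8.17 and 8.60 CPM with DMSO and at 11.3, 12 and 11.2 CPM with erianin, a log2 fold change of 0.52 (SE 0.11, edgeR adjusted p = 0.0242). In all 6 genes the groups did not overlap. Reads of ZNF587B are uncertain, since it overlaps ZNF586 on the same strand and shares 20.5% of the 50-base words of its longest transcript with ZNF552, and ZNF550 overlaps ZNF549 on the opposite strand. ZNF296 overlaps GEMIN7-AS1 and ZNF551 overlaps AC003006.1, both on the same strand.

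Of the members that fell, ZNF446 fell furthest. This gene, at the telomeric end of the last cluster, stood at 19.2, 17.3 and 11.3 CPM in DMSO replicates 1 to 3 and at 9.95, 8.36 and 9.48 CPM with erianin. DMSO replicate 3 lay between the other DMSO libraries and the erianin libraries, and the log2 fold change was -0.78 (SE 0.20, edgeR adjusted p = 0.0389). ZNF358 stood at 24.8, 24.5 and 21.5 CPM with DMSO and at 14.6, 13.5 and 13.8 CPM with erianin. It fell by 0.75 on the log2 scale (SE 0.10) with the smallest adjusted p of any member (edgeR adjusted p = 0.00560). ZNF324B, a KRAB zinc finger gene close to ZNF324, stood at 8.91, 8.26 and 6.39 CPM with DMSO and at 5.04, 4.18 and 5.05 CPM with erianin (log2 fold change -0.72, SE 0.17, edgeR adjusted p = 0.0284). ZNF865, with 21 finger patterns and no KRAB pattern, was one of the more abundant members at a mean of 49.2 TPM. It stood at 41.7, 44.6 and 34.2 CPM with DMSO and at 23.3, 24.9 and 25.7 CPM with erianin (log2 fold change -0.71, SE 0.12, edgeR adjusted p = 0.0107). ZNF792, a KRAB zinc finger gene, stood at 7.10, 9.24 and 7.19 CPM with DMSO and at 5.21, 5.27 and 5.28 CPM with erianin (log2 fold change -0.58, SE 0.14, edgeR adjusted p = 0.0351). The groups did not overlap in these 5 genes either. ZNF446 overlaps ZNF324 on the same strand and SLC27A5 on the opposite strand, and it shares 35.4% of its 50-base words with ZNF324, as ZNF324B does for 17.3%, so these 3 may carry each other's reads. ZNF358 overlaps AC008878.1 on the same strand and shares 19.5% of its words with another gene.

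Leaving out any 1 erianin library left ZNF296 as the single increase and ZNF358 as the single decrease, while the calls among all tested genes fell from 688 higher and 431 lower to between 172 and 184 higher and between 126 and 144 lower. The log2 fold changes of the members that lost their call moved little; ZNF850 stood at 0.93 to 1.09 and ZNF446 at -0.85 to -0.71. Leaving out DMSO replicate 1 or 2 left 3 increases and 2 decreases, and leaving out DMSO replicate 3 lost none of the 11 calls.

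**Figure D2:**
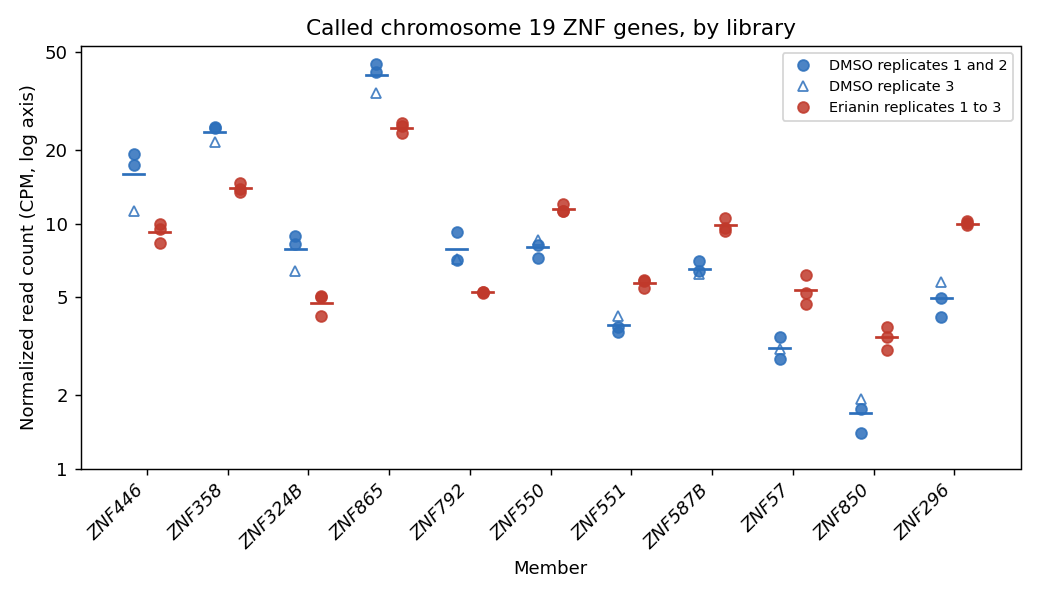
Normalized read count in CPM (y axis, log scale) of the 11 members called with all 6 libraries (x axis), with DMSO libraries in blue, DMSO replicate 3 as an open triangle, erianin libraries in red and group means as bars. Groups do not overlap in any of the 11 genes; ZNF446 has its DMSO replicate 3 at 11.3 CPM, next to the highest erianin library at 9.95 CPM.

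The most abundant members by TPM, a per-length scale, were not among the genes that rose. ZNF581 was highest at a mean of 158 TPM, followed by ZNF787 at 101 TPM, ZNF579 at 89.1 TPM, ZNF865 at 49.2 TPM and ZNF526 at 47.1 TPM. None of them holds a KRAB pattern. ZNF581 stood at 142, 132 and 95.1 CPM with DMSO and at 93.0, 87.7 and 100 CPM with erianin, so DMSO replicate 3 lay within the erianin range (log2 fold change -0.39, SE 0.15, edgeR adjusted p = 0.117). ZNF787 stood at 75.3, 74.4 and 61.1 CPM with DMSO and at 55.1, 56.0 and 60.8 CPM with erianin, and its log2 fold change of -0.29 did not pass either (edgeR adjusted p = 0.0996). ZNF579 and ZNF526 had log2 fold changes of -0.28 and -0.30 (edgeR adjusted p = 0.163 and 0.0506). The exons of ZNF581 overlap ZNF580 and CCDC106 on the same strand.

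Members with a known role did not pass the test with all 6 libraries. ZNF274, which recruits SETDB1 to the 3′ ends of ZNF genes, was nearly level at 42.7, 46.3 and 46.0 CPM with DMSO and 45, 45.9 and 45.2 CPM with erianin (log2 fold change 0.01, SE 0.08). ZNF91 and ZNF93, repressors of SVA and L1 retrotransposons, had log2 fold changes of -0.09 (SE 0.30) and -0.32 (SE 0.39). In ZNF91 the DMSO libraries read 3.08, 3.08 and 6.49 CPM and the erianin libraries 3.95, 3.86 and 4.11 CPM, so the third control alone lay above them. ZNF331, rearranged in some thyroid adenomas, stood at 12.4, 14.9 and 16.7 CPM with DMSO and at 15.4, 15.5 and 12.6 CPM with erianin (log2 fold change -0.02, SE 0.15). ZNF382 and ZNF471, which are methylated in several cancers, had log2 fold changes of -0.19 (SE 0.25) and -0.07 (SE 0.29). For ZNF175 and ZNF649 the values were 0.07 (SE 0.17) and -0.01 (SE 0.30). ZNF224, a repressor that binds WT1, stood at 2.09, 1.73 and 1.64 CPM with DMSO and at 2.37, 2.98 and 2.88 CPM with erianin (log2 fold change 0.60, SE 0.19, edgeR adjusted p = 0.0728). ZNF304, a KRAB zinc finger gene, stood at 7.64, 7.33 and 10.7 CPM with DMSO and at 11.3, 10.7 and 10.8 CPM with erianin (log2 fold change 0.35, SE 0.16, edgeR adjusted p = 0.187).

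Without DMSO replicate 3 many more members were called, most of them higher. Of 202 members tested, 42 rose (20.8%; 11.4% of 13053 tested genes) and 14 fell (6.93%; 6.11% of all tested genes), and the median log2 fold change was 0.21 against 0.02 for all genes. The increases ran from 0.50 to 1.51 on the log2 scale, and the decreases from -1.46 to -0.53. All 11 genes called with the 6 libraries were called here too. In 37 of the 42 genes that rose, DMSO replicate 3 lay above both other DMSO libraries, and in 11 of the 14 that fell it lay below both. These genes were chosen by the distance of DMSO replicates 1 and 2 from erianin. A left-out control is therefore more likely to lie on the erianin side of them. The same share among all called genes was not counted. The median standard error was 0.18. This fit set the erianin libraries against DMSO replicates 1 and 2 only, which lay close together. In it 7201 of the 13053 tested genes had an edgeR adjusted p under 0.05, whatever the fold change. With all 6 libraries 1912 of 12821 did. Small adjusted p-values were thus common among all genes in this fit.

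By adjusted p, ZNF317, ZNF507, ZNF296, ZNF146 and ZNF432 led the increases without DMSO replicate 3; these and the genes of the next paragraph were picked after their values were seen. ZNF317, a KRAB zinc finger gene, stood at 46.0 and 41.6 CPM in DMSO replicates 1 and 2, at 57.5 CPM in DMSO replicate 3 and at 67.1, 66.9 and 61.8 CPM with erianin. It rose by 0.58 on the log2 scale (SE 0.06, edgeR adjusted p = 1.47e-09). ZNF507 stood at 18.4 and 19.3 CPM in the first 2 controls, at 32.4 CPM in the third and at 31.4, 28.6 and 30.8 CPM with erianin, so the third control was above every erianin library (log2 fold change without it 0.68, SE 0.08, edgeR adjusted p = 7.2e-09). ZNF146, whose protein is almost wholly zinc fingers, showed this more strongly. It stood at 22.7 and 23.8 CPM, then at 47.5 CPM in DMSO replicate 3, and at 36.4, 33.6 and 36.8 CPM with erianin (0.61 without that library, SE 0.07, edgeR adjusted p = 1.66e-08, against 0.18 with it). ZNF432 stood at 3.20 and 3.79 CPM, at 6.58 CPM in the third control and at 8.02, 7.47 and 7.82 CPM with erianin (log2 fold change 1.14, SE 0.15, edgeR adjusted p = 5.85e-08); it overlaps its neighbour ZNF841 on the same strand.

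The decreases without DMSO replicate 3 were led by ZNF865, ZNF581, ZNF358, ZNF446 and ZNF324. ZNF865 fell by 0.81 (SE 0.07, edgeR adjusted p = 1.14e-11) and ZNF446 fell by 0.98 (SE 0.10, edgeR adjusted p = 6.76e-10). ZNF581, the most abundant member, fell by 0.55 (SE 0.05, edgeR adjusted p = 6.23e-11). ZNF324 stood at 23.6 and 22.7 CPM in the first 2 controls, at 16.1 CPM in the third and at 16.1, 15.8 and 16.3 CPM with erianin. The third control thus lay at the erianin level, and the log2 fold change without it was -0.53 (SE 0.08, edgeR adjusted p = 1.58e-06). Of the members with a known role, ZNF304 (0.54, edgeR adjusted p = 1.23e-04) and ZNF224 (0.53, edgeR adjusted p = 0.0444) were called, while ZNF274 stayed at 0.02 (SE 0.06).

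Direction went with the GC content of the transcripts. The tested members' transcripts had a median GC content of 42.6% (range 33.5 to 71.1), lower than the 49.9% of all tested genes and the 61.1% of the other protein-coding genes on chromosome 19. Without DMSO replicate 3, of 86 members under 42% GC, 23 rose and 0 fell (median log2 fold change 0.37). Of 84 members at 42 to 50%, 17 rose and 3 fell (median 0.21), and of 31 members above 50%, 2 rose and 11 fell (median -0.29). The same order ran through all genes, with 21.1% called higher and 0.631% lower under 42% GC, 10.5% and 2.25% at 42 to 50%, and 7.14% and 10.9% above 50%. With all 6 libraries 1 member rose and 0 fell under 42% GC (median log2 fold change 0.15), 4 and 0 did at 42 to 50% (0.13), and 1 and 5 did above 50% (-0.23). Among all tested genes in that fit, 143 rose and 10 fell of 2696 under 42% GC. At 42 to 50%, 196 rose and 66 fell of 3686, and above 50%, 344 rose and 350 fell of 6304. Across members, Spearman's rho between GC and log2 fold change came to -0.22 for the 6 libraries and to -0.39 once DMSO replicate 3 was left out, and across all tested genes to -0.24 and -0.43; genes share their libraries and are not independent points. DMSO replicate 3 itself had members under 42% GC at 0.49 and members above 50% at -0.30 relative to the other controls, on the same side as the erianin libraries.

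**Figure D3:**
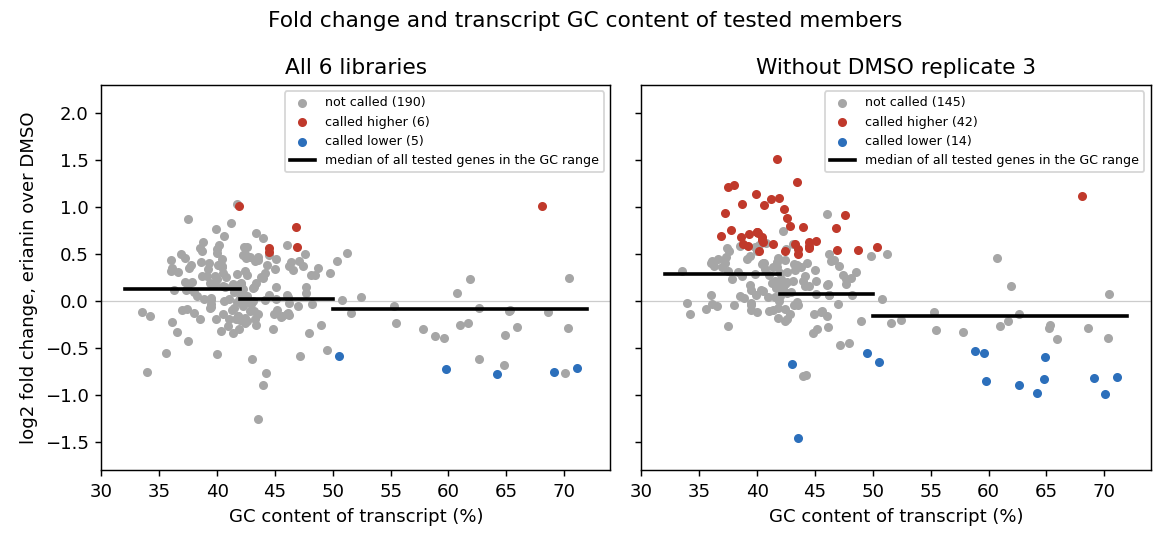
Log2 fold change of erianin over DMSO (y axis) against GC content of the transcript in percent (x axis) for the 201 members, with all 6 libraries on the left and without DMSO replicate 3 on the right; black bars are medians of all tested genes in 3 GC ranges. On the right, called members above 50% GC are mostly lower (11 of 13) and those below 50% are mostly higher (40 of 43).

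ZNF296 went against this order. At 68.1% GC it was the member with the highest GC content among those that rose, and all 5 genes that fell with the 6 libraries had at least 50.5%. A smooth trend on GC was then fitted in each library, to the levels of the tested genes relative to their means over libraries. With this trend removed, the log2 fold change of ZNF296 without DMSO replicate 3 went from 1.12 to 1.42. With the trend removed and all 6 libraries, 7 members were higher (6.07% of all tested genes) and 7 lower (2.95% of all tested genes), and the members' median was 0.03. With the trend removed and without DMSO replicate 3, 19 were higher (8.57% of all tested genes) and 12 lower (3.49% of all tested genes), and the median was 0.05 against 0.01 for all genes. Of the 42 increases 18 remained, as did 10 of the 14 decreases and 8 of the 11 genes first named. The other 3 of the 11 were at the fold threshold, ZNF587B at 0.50, ZNF550 at 0.46 and ZNF865 at -0.49. Of the genes named without DMSO replicate 3, ZNF507 (0.44), ZNF146 (0.40), ZNF581 (-0.36), ZNF324 (-0.35) and ZNF224 (0.29) were no longer called either. The part of GC content in these differences was not tested.

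**Figure D4:**
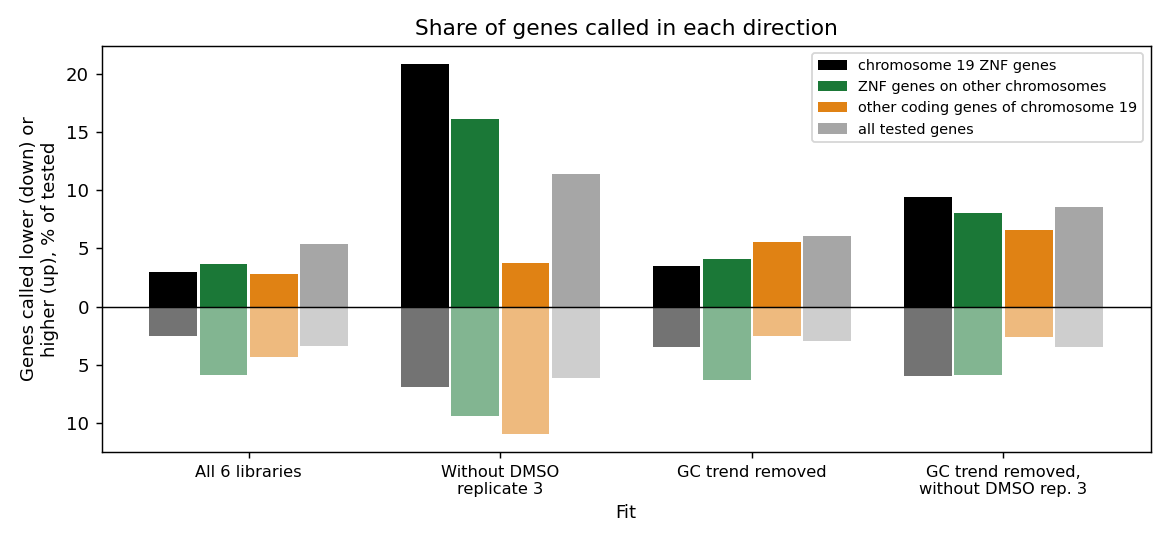
Share of tested genes called higher (above 0) or lower (below 0), in percent (y axis), in 4 fits (x axis) for the chromosome 19 ZNF genes, ZNF genes of other chromosomes, other protein-coding genes of chromosome 19 and all tested genes. The members' share called higher is 2.99%, 20.8%, 3.48% and 9.41% in the 4 fits, and that of all tested genes 5.37%, 11.4%, 6.07% and 8.57%.

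Members with and without a KRAB pattern differed in direction and in GC content together. Of 168 tested members with the pattern (median GC 42.2%), 39 rose and 6 fell without DMSO replicate 3 (median log2 fold change 0.27). Of 33 without it (median GC 61.7%), 3 rose and 8 fell (median -0.21), against 11.4% and 6.11% of all tested genes. With all 6 libraries 5 rose and 2 fell with the pattern and 1 rose and 3 fell without it (5.37% and 3.36% of all tested genes). In the fit without DMSO replicate 3, within members under 42% GC the medians were 0.36 with the pattern (n = 79) and 0.41 without it (n = 7), and above 50% GC they were -0.20 (n = 9) and -0.31 (n = 22). By number of finger patterns, in the same fit, 32 of 102 members with 13 or more rose and 5 fell (median GC 41.9%). Of 79 with 7 to 12 finger patterns 9 rose and 5 fell (42.4%), and of 20 with 0 to 6 patterns 1 rose and 4 fell (60.9%), against 11.4% and 6.11% of all tested genes. With the GC trend removed as well, 16, 2 and 1 rose and 5, 5 and 2 fell (8.57% and 3.49% of all tested genes). With all 6 libraries and no correction 4, 1 and 1 rose and 2, 2 and 1 fell (5.37% and 3.36% of all tested genes). Of the 40 genes with a matched promoter that rose without DMSO replicate 3, 15 held CCGGAAG, as did 5 of the 13 that fell. Among all 214 members with a matched promoter, called or not, 98 held it (45.8%; 10.3% of all promoters). The share was thus no higher among the called members in either direction.

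The calls were also counted along the chromosome. With starts less than 500 kb apart taken as neighbours, the members formed 20 clusters, of which 8 had at least 10 members and held 219 of the 243. The cluster from ZNF175 to ZNF331 (39 members, 35 tested, all 39 with the KRAB pattern) had 12 increases and 0 decreases without DMSO replicate 3, and a median log2 fold change of 0.42; over all tested genes 11.4% rose and 6.11% fell in that fit. Of the 18 tested genes from ZNF653 to ZNF791, 8 rose and 1 fell, of the 25 from ZNF565 to ZNF573, 6 and 0, and of the 19 from ZNF575 to ZNF180, 4 and 0. With the GC trend removed as well, the increases in these 4 clusters numbered 5, 5, 2 and 0, with 1, 1, 0 and 0 decreases. Over all tested genes 8.57% rose and 3.49% fell in that fit. With all 6 libraries and no correction, ZNF850 in the cluster from ZNF565 to ZNF573 was the single call in the 4 (5.37% higher and 3.36% lower over all tested genes). In the pericentromeric cluster from ZNF101 to ZNF254, 19 of 37 members were tested and no call was made in either fit. The median level over all 37 members, tested or not, was 0.129 TPM. Among the 19 tested, the median log2 fold change stood at -0.09 in the 6 libraries and at 0.32 once DMSO replicate 3 was left out. The GC-rich cluster from ZNF628 to ZNF835 (median GC 64.8%, 13 tested) had 0 increases and 4 decreases without DMSO replicate 3, with a median of -0.31, and 0 and 1 with the GC trend removed as well. The last cluster, from ZNF264 to ZNF446, held 3 of the 6 increases and 2 of the 5 decreases called with all 6 libraries; without DMSO replicate 3 it had 5 and 6.

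**Figure D5:**
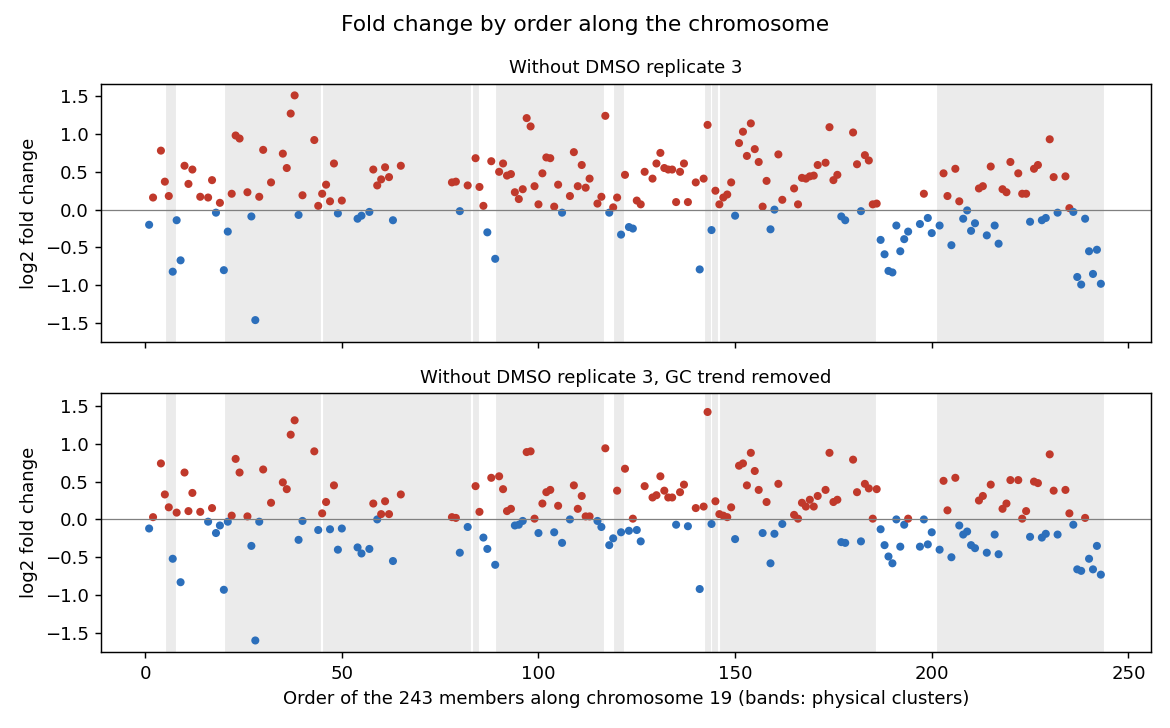
Log2 fold change without DMSO replicate 3 (y axis) by order of the members along chromosome 19 (x axis), before (top) and after (bottom) removing the GC trend; red is above 0, blue below, and shaded bands mark alternate physical clusters. The cluster from ZNF175 to ZNF331 has a median of 0.42 in the top panel and 0.23 in the bottom one, and the cluster from ZNF628 to ZNF835 has -0.31 and -0.17.

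Related genes are given side by side with the members. The 221 tested ZNF genes on other chromosomes had 8 increases and 13 decreases with all 6 libraries (median log2 fold change -0.09) and, of 223 tested, 36 and 21 without DMSO replicate 3 (median 0.05), at a median transcript GC of 45.4%. The 715 other protein-coding genes of chromosome 19 had 20 and 31 with all 6 libraries (median -0.09) and, of 725 tested, 27 and 79 without DMSO replicate 3 (median -0.19). All tested genes had 5.37% and 3.36% called with the 6 libraries and 11.4% and 6.11% without DMSO replicate 3. With the GC trend removed, the members' median was 0.03 against 0.01 for the other genes of chromosome 19 and -0.11 for the other ZNF genes, and without DMSO replicate 3 as well it was 0.05 against 0.01 and -0.04. These differences between sets were not tested.

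Corepressors of KRAB proteins and other heterochromatin genes were described together with a list of 26 genes, of which 24 were tested. The list is thus wider than the KRAB corepressors alone. TASOR had no counted read in any library, and whether this reflects absent expression was not tested. UHRF1 had no value here. With all 6 libraries 0 of the 24 were called higher (5.37% of all tested genes) and 2 were called lower (3.36% of all tested genes), and the median log2 fold change was -0.14. EHMT1, a histone H3 lysine methyltransferase, stood at 110, 114 and 109 CPM with DMSO and at 72.9, 72.5 and 71.9 CPM with erianin, and fell by 0.62 (SE 0.07, edgeR adjusted p = 0.00288). CBX5, the heterochromatin protein HP1 alpha, stood at 101, 98.7 and 116 CPM with DMSO and at 65.8, 74.0 and 68.4 CPM with erianin, and fell by 0.60 (SE 0.09, edgeR adjusted p = 0.00786). CBX3, of the same family, stood at 54.3, 47 and 49.4 CPM with DMSO and at 61.7, 64.7 and 66.7 CPM with erianin. Its log2 fold change of 0.36 (SE 0.09, edgeR adjusted p = 0.0324) was below the fold threshold, and that of CBX1 was 0.07 (edgeR adjusted p = 0.645). TRIM28, the scaffold that KRAB domains bind, stood at 704, 729 and 543 CPM with DMSO and at 585, 583 and 609 CPM with erianin, so its groups overlapped (log2 fold change -0.15, SE 0.11, edgeR adjusted p = 0.413). Without DMSO replicate 3 its log2 fold change was -0.28 (edgeR adjusted p = 3.69e-07), below the fold threshold. SETDB1 and the DNA methyltransferase DNMT1 had log2 fold changes of -0.33 (edgeR adjusted p = 0.0678) and -0.13 (edgeR adjusted p = 0.309). Without DMSO replicate 3, 1 of the 24 rose and 2 fell. SUV39H2 was the gene that rose (0.70, edgeR adjusted p = 6.06e-06), named after its value was seen.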

How the data were processed

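RNA-seq libraries of CAL62 cells, 3 with erianin and 3 with DMSO, were grouped by the labels. The authors deposited a table of raw counts and a table of TPM values made from those counts with 1 length per gene (to within 0.0154% over 11371 genes); TPM columns summed to 59.1% of their nominal total in DMSO replicate 3 and to 72.6% to 78.3% in the others, which bears on every TPM-scale count. The submitters' processing notes name fastp 0.23.2, STAR 2.7.10, featureCounts 2.0.1 and StringTie 2.2.1; whether counting used strand is not given in the sources used here. Of 65807 rows, 26480 had no gene identifier (0.00385% to 0.00515% of counts) and were left out. Identifiers were matched to GENCODE release 29 on GRCh38.

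The counts were tested with edgeR 4.0.16 (TMM factors, filterByExpr, quasi-likelihood) in R 4.3.3; CPM are TMM-normalized. Alternatives were DESeq2 1.42.0, other factors and filters, limma 3.58.1 on log2(TPM + 1) or log2(TPM + 0.1), a replicate block, leaving out each library, and a GC trend removed by loess (span 0.5). In simulated data of 12718 genes for the edgeR comparison of all 6 libraries, 200 of 200 changed genes were recovered, with 2 false calls. These data had no GC trend. With a GC trend added to the simulated erianin libraries and not removed, 191 were recovered, with 917 false calls among 12731 genes. With it removed in the fit, 200 were recovered, with 2 false calls. The added trend rose with GC, unlike the one found here, and its size was not matched to it. The simulated libraries had less spread than these data, and none of them stood apart. The changed genes moved by a factor of 2 and were not among those with the fewest reads. Recovery of smaller changes, or with a control such as DMSO replicate 3, was not measured. Deviations of equally numbered libraries from their group means correlated at -0.00664, 0.00767 and -0.0494. DMSO replicate 3 dominates the control deviations, so these values cannot settle whether the numbers pair the samples. The study's methods name no pairing, and none was used in the edgeR comparison of all 6 libraries.

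Members and lists were chosen with earlier results of these data known. Named members were those called with all 6 libraries, at least 1 CPM and no overlap (at most 10 a direction), the 3 smallest adjusted p a direction, the 5 highest by TPM and 10 with a known role. Proteins are not shown.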

Additional observations from a re-analysis of the deposited data

How the results depend on the processing

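ZNF296 and ZNF358 kept their calls under all 20 alternative fits, at 0.90 to 1.42 and -0.83 to -0.52. Of the members 6 were higher and 5 lower (median 0.09; 688 and 431 of all genes). The replicate block left 2 and 2 members (384 and 281 of all genes). Whether the numbers pair the samples is not known. Leaving out 1 library gave 1 to 42 members higher and 1 to 14 lower, a median of 0.01 to 0.21, and 172 to 1485 and 126 to 797 of all genes; without any 1 erianin library 1 and 1 members were called, without DMSO replicate 1 or 2, 3 and 2. On log2(TPM + 1) 16 and 1 members passed (median 0.22; 1098 and 94 of all genes, whose median was 0.18), on log2(TPM + 0.1) 22 and 1 (median 0.33; 1207 and 110), and unfiltered 14 and 1 (1057 and 88). Upper-quartile factors gave 9 and 5. With the GC trend removed and without DMSO replicate 3, 19 and 12 members were called (1119 of all genes higher). A length trend removed instead, chosen after seeing the data, gave 41 and 14 (median 0.20; 1418 and 853). A log2 threshold of 1 left 2 and 0 (324 and 28), and no threshold gave 986 of all genes lower. The cause of these moves was not tested.

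Some members that were not called changed sign. Left-out libraries are given as ranges. ZNF331 went to 0.03 with upper-quartile factors, 0.14 and 0.18 on the TPM scales (0.14 unfiltered), 0.01 with GC and no DMSO replicate 3, 0.02 with the length trend and 0.06 with both that and no DMSO replicate 3 (left-out range -0.13 to 0.07). ZNF649 went to 0.04, 0.17, 0.27 and 0.17 in the first 4 of these, 0.06 under the block, 0.16 with GC and 0.34 with length, both without DMSO replicate 3 (range -0.27 to 0.36). ZNF91 went to 0.10, 0.19 and 0.10 on the TPM scales, 0.03 with GC and 0.36 with length, both without DMSO replicate 3 (range -0.28 to 0.36). ZNF382 went to 0.04, 0.07 and 0.04 on the TPM scales and 0.13 with length and no DMSO replicate 3 (range -0.40 to 0.14). ZNF471 went to 0.07 unfiltered on TPM, 0.00 with GC and 0.20 with length, both without DMSO replicate 3 (range -0.30 to 0.21). ZNF93 went to 0.10 with length and no DMSO replicate 3, and the ranges over left-out libraries crossed 0 for it (-0.60 to 0.12) and for ZNF175 (-0.06 to 0.16). ZNF274 went to -0.01 unfiltered (range -0.03 to 0.03). At this depth 28 members with reads were too low to test.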
